A study of Mus musculus with 12 samples.

Results

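Transforming growth factor beta (TGF-beta) is a secreted cytokine that binds a pair of serine-threonine kinase receptors and acts through SMAD transcription factors. In injured kidney it is best known for turning pericytes and resident fibroblasts into myofibroblasts, contractile cells that carry alpha-smooth muscle actin and lay down fibrous matrix. Platelet-derived growth factor B (PDGF-B) acts beside it through the receptor PDGFR-beta, which is found on pericytes, mesangial cells and fibroblasts. The 10 genes described here cover this axis: the ligands Tgfb1, Tgfb2 and Pdgfb, the receptors Tgfbr2 and Pdgfrb, the matricellular and matrix genes Ctgf, Fn1 and Postn, and the contractile genes Acta2 and Tagln. They were chosen by name, were all found among the 27179 genes of the table by their NCBI Gene number (Ctgf as Ccn2, its present name), and all passed the filter on low values, which kept the 14972 genes that reached 1 TPM in 3 or more libraries for testing.

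The libraries came from whole kidneys of 12 mice, 3 in each of 4 groups, aged 8 to 12 weeks and labelled as of mixed strain background. Wild-type mice and mice labelled FAN1KO (γGT1-Cre;Fan1-/-, in which Cre from the Ggt1 promoter deletes the DNA repair nuclease FAN1 in proximal tubule cells) received saline, or cisplatin at 2 mg/kg once a week for 5 weeks. Cisplatin is a platinum drug that crosslinks DNA and damages proximal tubules. Inherited loss of FAN1 causes karyomegalic interstitial nephritis, a chronic tubular and interstitial kidney disease with fibrosis. In whole kidney, more cells of a type and more RNA per cell cannot be told apart.

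Fan1 did not check the labels, because its level in TPM overlapped between genotypes: 1.17 to 2.28 in FAN1KO against 1.98 to 3.80 in wild-type kidneys under saline, and 1.55 to 3.51 against 2.33 to 3.57 under cisplatin. The markers of other nephron segments (Umod, Slc12a3, Aqp2 and Nphs1) summed to 1330 to 3374 TPM, so every library carried kidney RNA. Libraries held about 37202055 to 82947369 reads, worked back from the smallest TPM steps in each. The 10 genes ranged from 34 reads in a library (Postn) to 6316 (Tgfbr2). Replicate 3 of wild-type saline, replicate 1 of FAN1KO saline, replicate 1 of wild-type cisplatin and replicate 3 of FAN1KO cisplatin carried Y-linked RNA and stood apart for most of these genes. Main calls of the 10 genes and of named genes of other lists are therefore also given for the 8 libraries without Y-linked RNA. In those 8, limma called more genes at an adjusted p under 0.05. Between genotypes under cisplatin 28.9% of all genes tested were higher, against 19.6% in all 12 libraries. For cisplatin over saline in FAN1KO kidneys the shares were 44.4% and 34.9%. TPM within a library add up to a constant. Over all tested genes the median of the log2 fold changes lay above 0, at 0.24 between genotypes under cisplatin (FAN1KO over wild-type) and 0.37 for cisplatin over saline in FAN1KO kidneys. A member near these values moved with the bulk of genes.

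The 250 bases before the start of Tgfbr2 and Tgfb1 are shown because this receptor and this ligand are the TGF-beta genes among the 10 with a called change. Both are RefSeq sequence of GRCm38.p6, with capitals for the GC box (GGGCGG), the TATA box (TATAAA) or the SMAD-binding letters CAGACA on either strand. A start region was found for 5 of the 10 genes.
Tgfb1 (chr7:25686752-25687001, plus strand): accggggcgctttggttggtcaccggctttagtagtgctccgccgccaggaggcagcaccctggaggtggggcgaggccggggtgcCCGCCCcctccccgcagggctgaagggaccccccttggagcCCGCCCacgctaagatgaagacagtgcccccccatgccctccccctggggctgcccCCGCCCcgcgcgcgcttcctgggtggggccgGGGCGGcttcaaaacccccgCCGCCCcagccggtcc
Tgfbr2 (chr9:116175364-116175613, minus strand): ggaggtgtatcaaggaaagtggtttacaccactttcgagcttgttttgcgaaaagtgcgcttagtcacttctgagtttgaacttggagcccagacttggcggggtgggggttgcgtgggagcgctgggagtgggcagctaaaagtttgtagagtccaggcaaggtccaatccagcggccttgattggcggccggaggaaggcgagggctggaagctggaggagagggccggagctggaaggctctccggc
The stretch before Tgfb1 was 75.2% G and C and held the GC box 5 times. The stretch before Tgfbr2 was 58.4% G and C and held none of these motifs. Among 32851 start regions of the same length the median was 52.4% G and C, 32.74% held a GC box, 12.37% a TATA box and 17.13% the SMAD letters. A match in such a window is a description and not a site.

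Under cisplatin, Tgfbr2 was the member that differed between genotypes: it was about 2-fold higher in FAN1KO than in wild-type kidneys, while the other 9 genes did not pass the test. The ligands Tgfb1 and Pdgfb had fold changes nearly as large but wider errors, and the matrix and contractile genes had log2 fold changes of -0.14 to 0.32. Thus 1 of 10 members was called higher and none lower at an adjusted p under 0.05 in limma, against 19.6% of all genes tested called higher and 4.37% called lower (2931 and 654 genes, or 1300 and 1154 with median-ratio scaling, where Tgfbr2 was again the single member called). The median log2 fold change of the 10 was 0.28, close to the 0.24 of all genes.

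Tgfbr2 (NCBI Gene 21813, chromosome 9, 116087695 to 116175363) encodes the type II receptor, which binds TGF-beta first and phosphorylates the type I receptor. Its TPM read 26.8, 22.5 and 21.1 in wild-type saline, 17.8, 23.1 and 25.2 in FAN1KO saline, 25.3, 28.6 and 21.0 in wild-type cisplatin and 63.1, 44.9 and 49.7 in FAN1KO cisplatin kidneys. All 3 FAN1KO cisplatin libraries lay above all 9 others, which overlapped one another, and the mean rose from 25.0 ± 3.82 to 52.6 ± 9.40 TPM (SD, n = 3 each) between genotypes under cisplatin. The log2 fold change of TPM + 1 was 1.04 ± 0.17 (SE, adjusted p = 0.0031), which is 0.80 above the median of all genes. Without the Y-linked libraries it was 1.09 ± 0.20 (adjusted p = 0.0070), and with median-ratio scaling, which takes out the shift of all genes, it was 0.74 (adjusted p = 0.011). The exact permutation test gave p = 0.1, the smallest that 3 against 3 mice allow. For the 3 and 3 libraries not to overlap, with FAN1KO higher, was true of 35.7% of all genes tested and of 2 members, Tgfbr2 and Pdgfb.

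Tgfb1 (21803, chromosome 7, 25687002 to 25705077) encodes the main TGF-beta isoform of kidney fibrosis. Its TPM read 15.1, 11.5 and 6.87 in wild-type saline, 5.33, 13.5 and 13.4 in FAN1KO saline, 7.41, 24.9 and 18.1 in wild-type cisplatin and 39.5, 23.8 and 25.7 in FAN1KO cisplatin kidneys. The FAN1KO cisplatin libraries overlapped only wild-type cisplatin replicate 2, and the difference between genotypes was 0.90 ± 0.46 (log2, SE, adjusted p = 0.17). Pdgfb (18591, chromosome 15, 79995865 to 80024614) encodes the B chain that endothelial cells release to hold pericytes. It was at 14.3, 13.9 and 10.6 TPM in wild-type saline, 9.21, 16.8 and 19.1 in FAN1KO saline, 11.7, 23.7 and 27.5 in wild-type cisplatin and 42.1, 29.7 and 38.8 in FAN1KO cisplatin kidneys. The groups under cisplatin did not overlap, yet the difference of 0.85 ± 0.32 (log2, SE) had an adjusted p of 0.078. With the Y-linked score as a covariate both ligands were called higher (Tgfb1 0.92 ± 0.26, adjusted p = 0.014; Pdgfb 0.87 ± 0.23, adjusted p = 0.011), where 40.3% of all genes were called higher. In the 8 libraries without Y-linked RNA neither was called (0.51 ± 0.25, adjusted p = 0.15, and 0.45 ± 0.17, adjusted p = 0.070). Of all genes 28.9% were called higher there.

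Tgfb2 (21808, chromosome 1, 186622787 to 186709697) encodes a second isoform and was below Tgfb1 in all 12 libraries. It read 1.52, 1.36 and 0.515 TPM in wild-type saline, 0.616, 2.24 and 1.44 in FAN1KO saline, 0.663, 2.09 and 1.47 in wild-type cisplatin and 3.97, 1.85 and 1.52 in FAN1KO cisplatin kidneys. A single FAN1KO cisplatin library, replicate 1, exceeded the rest, and the difference between genotypes was 0.50 ± 0.36 (log2, SE, adjusted p = 0.33).

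Pdgfrb (18596, chromosome 18, 61045127 to 61085067) encodes the receptor for PDGF-B and is widely used as a pericyte and fibroblast marker. Its TPM read 17.7, 15.2 and 5.55 in wild-type saline, 4.46, 16.5 and 16.6 in FAN1KO saline, 6.36, 27.7 and 19.5 in wild-type cisplatin and 22.5, 10.6 and 5.85 in FAN1KO cisplatin kidneys. The 4 groups overlapped, and under cisplatin the genotypes differed by -0.41 ± 0.67 (log2, SE, adjusted p = 0.69). The ratio of Pdgfb to Pdgfrb within a library was 1.87, 2.80 and 6.63 in FAN1KO cisplatin kidneys and ran from 0.806 to 2.07 in the other 9, so that it was highest in 2 of the 3 FAN1KO cisplatin libraries. The ratio of 6.63 belongs to the library with Y-linked RNA, and the ratio was highest in such a library in every group (1.91, 2.07 and 1.83 in the other groups), where Pdgfrb was lowest.

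**Figure D1:**
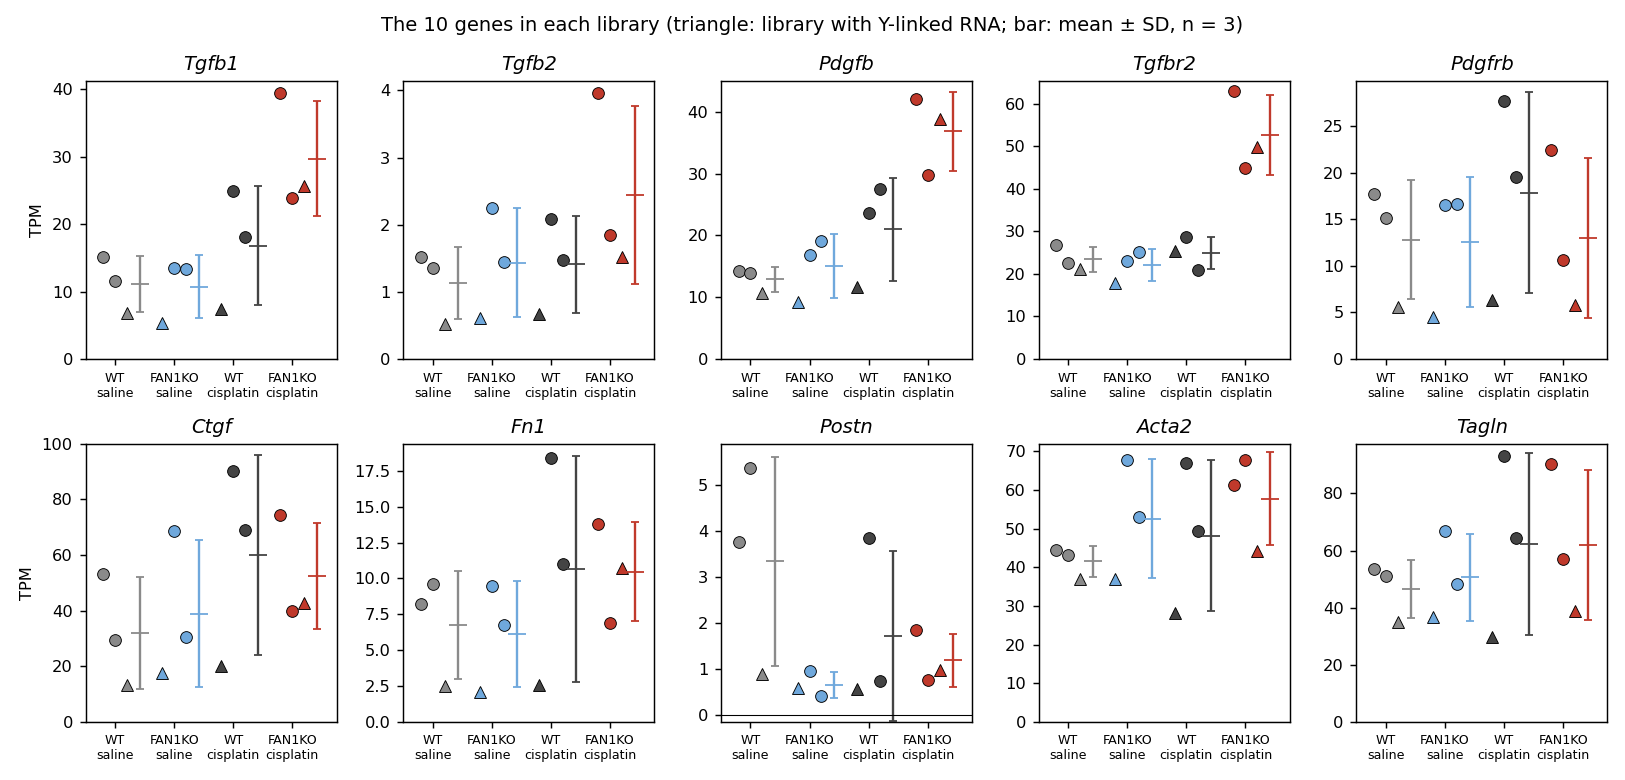
TPM of the 10 genes (1 panel each, linear axis) in the 12 libraries by group, with triangles for the 4 libraries with Y-linked RNA and bars for the mean ± SD of 3. Tgfbr2 was at 44.9 to 63.1 TPM in FAN1KO cisplatin kidneys and at most 28.6 in the others, whereas the 4 groups overlapped for Pdgfrb, Ctgf, Fn1, Acta2 and Tagln.

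None of the 3 matricellular and matrix genes was called between genotypes under cisplatin, with SE too wide to show that they did not differ. Ctgf (14219, chromosome 10, 24595442 to 24598683) encodes connective tissue growth factor, a matricellular protein and classical TGF-beta and YAP target. It was at 53.1, 29.3 and 13.1 TPM in wild-type saline, 17.5, 68.6 and 30.6 in FAN1KO saline, 20.2, 90.3 and 69.2 in wild-type cisplatin and 74.4, 40.0 and 42.8 in FAN1KO cisplatin kidneys. Under cisplatin wild-type kidneys averaged 59.9 ± 35.9 TPM and FAN1KO kidneys 52.4 ± 19.1 TPM (SD, n = 3), a log2 difference of -0.00093 ± 0.65 (SE, adjusted p = 0.9994 in limma). Fn1 (14268, chromosome 1, 71585473 to 71653280) encodes fibronectin, an early matrix scaffold. Its TPM read 8.21, 9.58 and 2.50 in wild-type saline, 2.11, 9.44 and 6.75 in FAN1KO saline, 2.57, 18.4 and 11.0 in wild-type cisplatin and 13.8, 6.90 and 10.7 in FAN1KO cisplatin kidneys. The FAN1KO cisplatin values lay inside the wild-type cisplatin range, with a log2 difference of 0.24 ± 0.66 (SE, adjusted p = 0.82).

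Postn (50706, chromosome 3, 54359267 to 54391041) encodes periostin, secreted by activated fibroblasts. It was the least abundant of the matrix genes, at 3.77, 5.36 and 0.897 TPM in wild-type saline, 0.592, 0.966 and 0.413 in FAN1KO saline, 0.574, 3.84 and 0.741 in wild-type cisplatin and 1.84, 0.757 and 0.972 in FAN1KO cisplatin kidneys. Under cisplatin the genotypes differed by -0.14 ± 0.49 (log2, SE, adjusted p = 0.86). Its largest difference was under saline, from 3.34 ± 2.26 TPM in wild-type to 0.657 ± 0.282 in FAN1KO kidneys (SD, n = 3), or -1.23 ± 0.49 on the log2 scale (SE, adjusted p = 0.50). Wild-type saline replicate 3, the library with Y-linked RNA, lay below the highest FAN1KO saline library, so the groups overlapped.

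The contractile genes also overlapped between all 4 groups. Acta2 (11475, chromosome 19, 34240336 to 34255585) encodes alpha-smooth muscle actin, the marker that defines myofibroblasts and also marks arterial smooth muscle. Other actin genes are close in sequence, so reads shared between them may have been split. Its TPM read 44.4, 43.3 and 36.9 in wild-type saline, 36.9, 67.8 and 53.1 in FAN1KO saline, 28.1, 67.1 and 49.5 in wild-type cisplatin and 61.4, 67.7 and 44.3 in FAN1KO cisplatin kidneys. The means under cisplatin were 48.2 ± 19.5 and 57.8 ± 12.1 TPM (SD, n = 3), with a log2 difference of 0.32 ± 0.30 (SE, adjusted p = 0.47). Tagln (21345, chromosome 9, 45929628 to 45936058) encodes transgelin, an actin-binding protein of smooth muscle, and overlaps the neighbouring gene Pcsk7. It was at 53.5, 51.0 and 34.9 TPM in wild-type saline, 36.6, 66.7 and 48.3 in FAN1KO saline, 29.7, 93.2 and 64.2 in wild-type cisplatin and 90.3, 56.9 and 38.7 in FAN1KO cisplatin kidneys. The log2 difference between genotypes under cisplatin was 0.05 ± 0.41 (SE, adjusted p = 0.94). Both genes were highest in the same library of wild-type saline (replicate 1), FAN1KO saline (replicate 2) and wild-type cisplatin (replicate 2), and Tagln stayed between 0.841 and 1.47 times Acta2 in all 12 libraries.

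Cisplatin against saline in FAN1KO kidneys gave the most calls: Tgfb1, Pdgfb and Tgfbr2 rose, and the other 7 did not pass the test. The 3 of 10 called higher stand beside 34.9% of all genes tested called higher in this comparison, and the same 3 had no overlap between groups, as 47.4% of all genes did with cisplatin higher. Tgfb1 rose from 10.7 ± 4.67 to 29.7 ± 8.55 TPM (SD, n = 3), or 1.45 ± 0.46 on the log2 scale (SE, adjusted p = 0.028). Pdgfb rose from 15.1 ± 5.19 to 36.9 ± 6.40 TPM, a log2 fold change of 1.28 ± 0.32 (adjusted p = 0.011), and Tgfbr2 from 22.1 ± 3.80 to 52.6 ± 9.40 TPM, a log2 fold change of 1.22 ± 0.17 (adjusted p = 0.00070). In the 8 libraries without Y-linked RNA the 3 were also called, with log2 fold changes of 1.14, 0.94 and 1.11 (adjusted p = 0.0082, 0.0034 and 0.0035). Of all genes 44.4% were called higher in these 8 libraries. The call of Tgfb1 rested on single libraries: its adjusted p was 0.11 without FAN1KO cisplatin replicate 1 and 0.11 without FAN1KO saline replicate 1. Fn1 (0.82 ± 0.66), Ctgf (0.58 ± 0.65), Tgfb2 (0.49 ± 0.36), Postn (0.39 ± 0.49), Tagln (0.25 ± 0.41), Acta2 (0.15 ± 0.30) and Pdgfrb (0.05 ± 0.67) had log2 fold changes that did not pass (SE after each value).

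**Figure D2:**
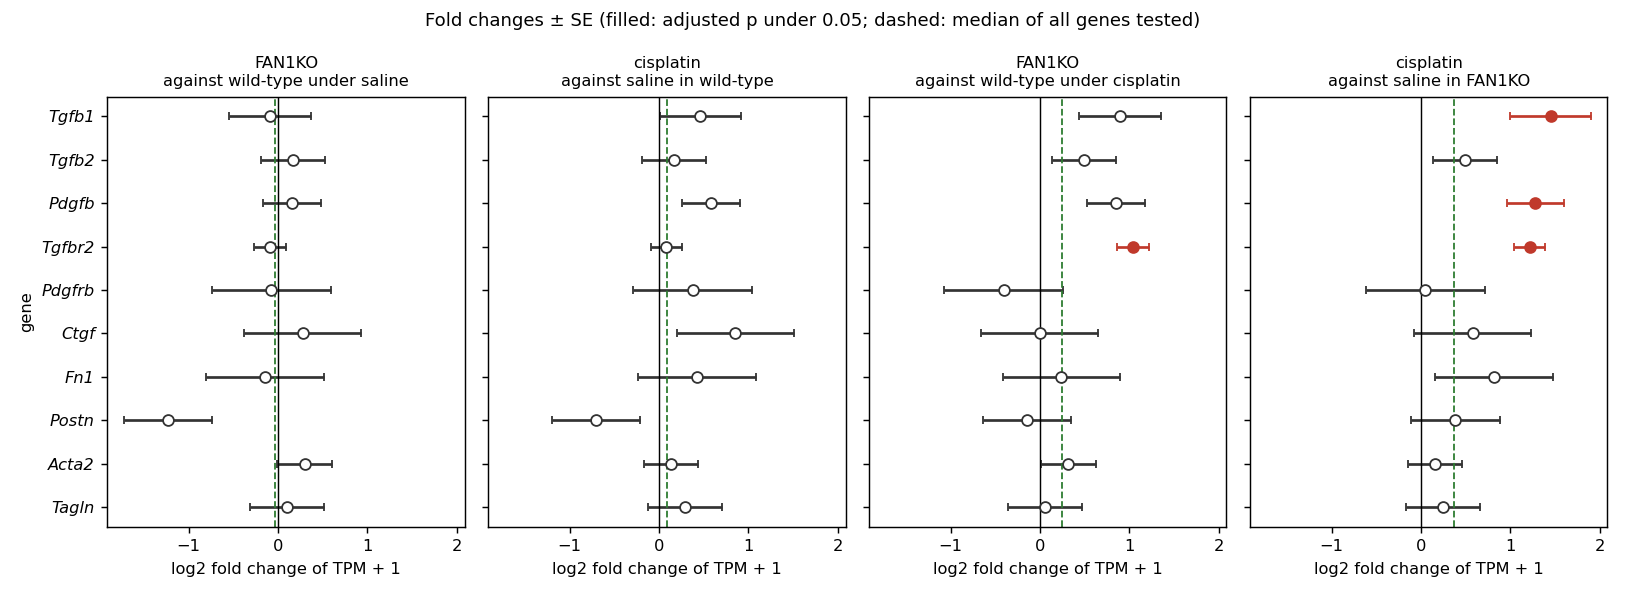
Log2 fold change of TPM + 1 (x axis, ± SE) of the 10 genes (y axis) in 4 comparisons, filled where the adjusted p is under 0.05, with a dashed line at the all-gene median. Tgfbr2 is filled in both comparisons that involve FAN1KO cisplatin kidneys, at 1.04 and 1.22, and nothing is filled in the 2 panels on the left.

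In wild-type kidneys limma called none of the 10 genes for cisplatin over saline, against 0.0601% of all genes in either direction, and 0 members had an unadjusted p under 0.05. On the recovered reads limma's voom also called 0. The log2 fold changes ran from -0.71 ± 0.49 (SE) for Postn to 0.85 ± 0.65 for Ctgf, with 0.46 ± 0.46 for Tgfb1, 0.59 ± 0.32 for Pdgfb and 0.08 ± 0.17 for Tgfbr2. For 7 of the 10 genes (Tgfb1, Pdgfb, Pdgfrb, Ctgf, Fn1, Acta2 and Tagln) wild-type cisplatin replicates 2 and 3 lay above every wild-type saline library, and replicate 1, which carries Y-linked RNA, was the lowest of its group. The share of all genes with this pattern was not counted, so the 7 of 10 cannot be read as a trait of these genes. Without that library 3 members had an unadjusted p under 0.05 and the median of the 10 rose from 0.34 to 0.84 on the log2 scale, and in the 8 libraries without Y-linked RNA 2 did (median 0.52), with 0 called in either. Of the 14972 genes, 1426 had an unadjusted p under 0.05 without that library, 2342 in the 8 libraries and 449 in all libraries. The medians of all genes were 0.18, 0.094 and 0.084. Between genotypes under saline none of the 10 was called either, against 0.768% of all genes in either direction, and voom called 0. In limma 1 member, Postn, had an unadjusted p under 0.05, as did 1255 of the 14972 genes. The other 9 differed between genotypes under saline by log2 fold changes of -0.15 (Fn1) to 0.30 (Acta2).

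The effect of cisplatin differed between genotypes for Tgfbr2 by a log2 difference of 1.13 ± 0.25 (SE, adjusted p = 0.029), the single member called of 10, where 6.24% of all genes were called in either direction. Its adjusted p was 0.039 without the Y-linked libraries, 0.085 with median-ratio scaling (0.78), 0.060 with the replicate block, and 0.035 to 0.076 when single libraries were left out. The call was lost without replicate 1 or 2 of wild-type saline, replicate 1 of FAN1KO saline, replicate 1 or 3 of wild-type cisplatin, or replicate 1 of FAN1KO cisplatin. Without the Y-linked libraries 13.4% of all genes were called higher in the interaction and 2.90% lower. For Tgfb1 and Pdgfb, the difference between the effects of cisplatin was 0.99 ± 0.64 (adjusted p = 0.37) and 0.70 ± 0.46 (adjusted p = 0.37), so their rise in FAN1KO kidneys was not shown to differ from that in wild-type kidneys.

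Within each group the library with Y-linked RNA was low for most of the 10 genes. For Pdgfrb it was lowest in 4 of 4 groups, by 1.41, 1.69, 1.72 and 1.27 on the log2(TPM + 1) scale below the mean of the other 2 libraries (in the order wild-type and FAN1KO under saline, then both under cisplatin). It was also lowest in 4 of 4 groups for Tgfb2, Acta2 and Tagln, in 3 of 4 for Tgfb1, Pdgfb, Ctgf and Fn1, and in 2 of 4 for Tgfbr2 and Postn. These 4 of 10 members compare with 41.5% of all genes tested. As a term in the fit, Y-linked RNA was called lower for 8 of 10 members against 49.5% of all genes, with log2 differences from -0.55 ± 0.17 (SE) for Pdgfb (adjusted p = 0.022) to -1.52 ± 0.18 for Pdgfrb (adjusted p = 0.00023). Tgfbr2 (-0.17 ± 0.12, adjusted p = 0.24) and Postn (-0.64 ± 0.31, adjusted p = 0.10) were not called.

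In FAN1KO cisplatin kidneys the Y-linked library was not low for Pdgfb (0.13 above the others on the log2 scale) and Fn1 (0.11 above), though it was 1.07 and 2.09 below them in wild-type cisplatin kidneys. Between the 2 Y-linked cisplatin libraries, FAN1KO was therefore higher than wild-type by 1.71 for Fn1, 1.67 for Tgfb1, 1.65 for Pdgfb, 1.05 for Ctgf and 0.95 for Tgfbr2. Between the other cisplatin libraries the same differences were -0.50, 0.51, 0.45, -0.52 and 1.09. Only Tgfbr2 of these 5 had about the same difference in both. Among the other members Tgfb2 was also alike in both, at 0.60 between the Y-linked libraries and 0.45 between the others. In the same order the rest were 0.64 and 0.16 for Acta2, 0.37 and -0.11 for Tagln, 0.33 and -0.38 for Postn, and -0.10 and -0.56 for Pdgfrb. Each Y-linked value rests on 1 mouse a group.

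**Figure D3:**
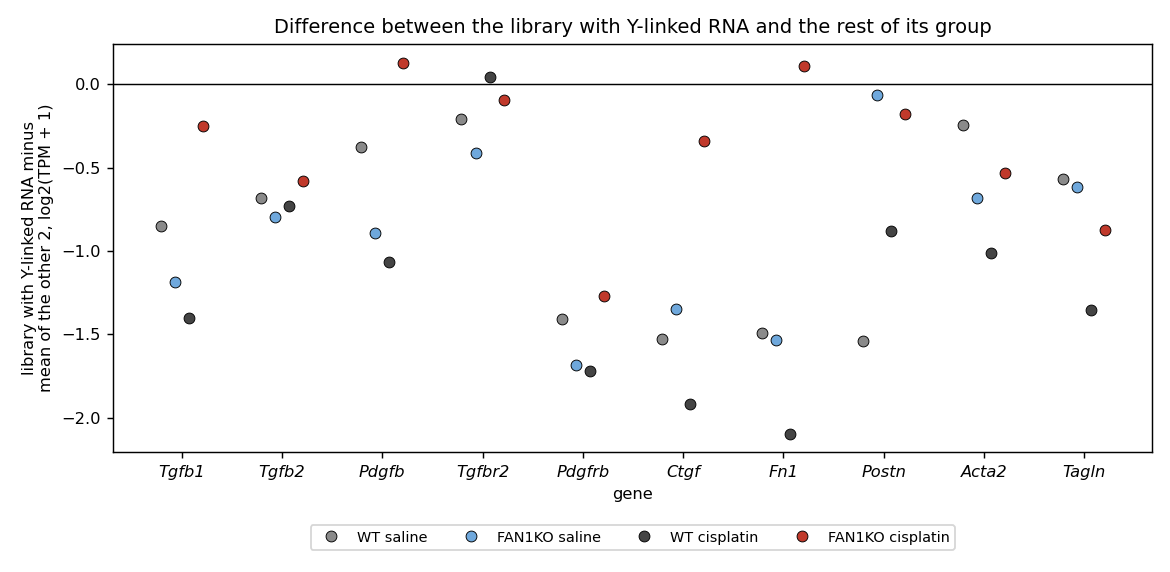
For each of the 10 genes (x axis), the library with Y-linked RNA minus the mean of the other 2 libraries of its group, in log2(TPM + 1) (y axis), with 1 point a group. All 4 points lie below 0 for Tgfb1, Tgfb2, Pdgfrb, Ctgf, Postn, Acta2 and Tagln, while the FAN1KO cisplatin point lies above 0 for Pdgfb and Fn1.

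The other genes of these pathways stood in 5 lists made without the 10 members. Between genotypes under cisplatin their calls were all higher, as were most calls over all genes (19.6% higher and 4.37% lower, with a median log2 fold change of 0.24). With the Y-linked covariate 4 genes of the lists were called lower. In the 8 libraries without Y-linked RNA 1 gene among receptors, SMADs and inhibitors was also called lower. Among ligands and activators of TGF-beta, 4 of 14 were higher, with a median log2 fold change of 0.28. The count was 0 without wild-type cisplatin replicate 1, without FAN1KO cisplatin replicate 1 or without FAN1KO cisplatin replicate 2, and 2 without wild-type cisplatin replicate 3. The share of all genes called higher also fell, to 9.63%, 7.81%, 10.3% and 15.9% in the same order. Itgav, the alpha-v integrin chain that helps release TGF-beta from its latent form, was at 24.2, 38.8 and 36.1 TPM in wild-type and 67.4, 54.1 and 54.5 in FAN1KO cisplatin kidneys (log2 fold change 0.83 ± 0.23, adjusted p = 0.025). Gdf11, a ligand of the same superfamily, differed by 1.05 ± 0.32 (adjusted p = 0.039) and Ltbp2, a latent TGF-beta binding protein family member of elastic fibres, by 0.75 ± 0.20 (adjusted p = 0.024), both at low levels of at most 6.49 TPM. The call of Gdf11 was lost under 5 other settings, median-ratio scaling among them (adjusted p = 0.067), and without 4 of 6 single libraries, and that of Ltbp2 was lost with a pseudocount of 0.1 (adjusted p = 0.066), with only the libraries compared (adjusted p = 0.091) and without 4 of 6 single libraries. The call of Itgav was lost with mitochondrially encoded and globin genes left out (adjusted p = 0.056). It was also lost without wild-type cisplatin replicate 1 (adjusted p = 0.093) or FAN1KO cisplatin replicate 1 (0.10) or 2 (0.057). Itgb6, the partner chain of alpha-v in epithelium, differed by 0.41 ± 0.11 (adjusted p = 0.021) but by 0.11 (adjusted p = 0.57) with median-ratio scaling. Its call was also lost with mitochondrially encoded and globin genes left out (adjusted p = 0.096) and without 4 of 6 single libraries. Thbs1, an activator of latent TGF-beta, had the largest fold change of the list but just missed the threshold (1.74 ± 0.58, adjusted p = 0.052). It was called with the Y-linked covariate (adjusted p = 0.0016), where 40.3% of all genes were called higher. Its adjusted p was 0.048 to 0.049 with only the libraries compared, the replicate block, voom, and without wild-type cisplatin replicate 2. Thbs1 and Itgb6 were named after their values were seen. In the 8 libraries without Y-linked RNA, Itgav (0.68, adjusted p = 0.0069), Gdf11 (0.70, adjusted p = 0.028), Ltbp2 (0.59, adjusted p = 0.049) and Itgb6 (0.41, adjusted p = 0.022) were called, as was Thbs1 (1.41, adjusted p = 0.012). Of all genes 28.9% were called higher there.

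Among receptors, SMADs and inhibitors, 3 of 16 were higher with a median of 0.20, against 19.6% and 0.24 over all genes. The count was 1 or 2 without any single cisplatin library other than FAN1KO replicate 3. The share of all genes called higher was 7.81% to 15.9% in those fits. Tgfbr1, the type I partner of Tgfbr2, was at 14.1, 18.5 and 14.1 TPM in wild-type and 27.4, 25.6 and 21.5 in FAN1KO cisplatin kidneys, with no overlap (log2 fold change 0.65 ± 0.18, adjusted p = 0.025). Tgif1, a corepressor of SMAD complexes, differed by 0.99 ± 0.20 (adjusted p = 0.0074) and Smurf1, a ubiquitin ligase that acts on SMADs and receptors, by 0.75 ± 0.22 (adjusted p = 0.032). The calls of Tgfbr1 and Smurf1 were each lost without 4 of 6 single libraries (adjusted p up to 0.0996 and 0.13) and with mitochondrially encoded and globin genes left out (0.064 and 0.069), while Tgif1 was called throughout. All 3 were called in the 8 libraries without Y-linked RNA (Tgfbr1 0.68, adjusted p = 0.0079; Tgif1 1.11, adjusted p = 0.017; Smurf1 0.75, adjusted p = 0.0033). Of all genes 28.9% were called higher there. Among the other PDGF genes 2 of 4 were higher, with a median of 0.57, against the same 19.6% of all genes, and 1 of 4 was with median-ratio scaling, with only the libraries compared, with mitochondrially encoded and globin genes left out, and without wild-type cisplatin replicate 1 or 3 or FAN1KO cisplatin replicate 3. The share of all genes called higher was 8.68% to 19.7% in those fits. Pdgfa was at 18.5, 31.9 and 34.1 TPM in wild-type and 87.9, 66.2 and 58.2 in FAN1KO cisplatin kidneys (1.32 ± 0.23, adjusted p = 0.0036), and Pdgfd, a further ligand of PDGFR-beta, differed by 1.03 ± 0.28 (adjusted p = 0.025). Pdgfa was called under every alternative, and Pdgfd was lost with median-ratio scaling (adjusted p = 0.095). Both were called in the 8 libraries without Y-linked RNA (Pdgfa 1.19, adjusted p = 0.0024; Pdgfd 0.68, adjusted p = 0.028).

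In the contractile and smooth muscle list 1 of the 12 genes tested was higher (15 were listed, and Actg2, Myocd and Synpo2 were too low to test), with a median of 0.40, against 19.6% of all genes. This was Tpm1, a tropomyosin also present outside muscle, with 28.6, 73.7 and 64.8 TPM in wild-type and 159, 114 and 96.5 in FAN1KO cisplatin kidneys (1.20 ± 0.35, adjusted p = 0.032). Its call was lost without wild-type cisplatin replicate 1 (adjusted p = 0.093) or FAN1KO cisplatin replicate 1 (0.13) or 2 (0.075). It was also lost with only the libraries compared (0.071) and with mitochondrially encoded and globin genes left out (0.053). The log2 fold change of Tpm1 was 0.95 (adjusted p = 0.0077) in the 8 libraries without Y-linked RNA. In the matricellular and matrix-modifying list 3 of the 12 tested were higher, against 19.6% of all genes, with a median of 0.36 (14 were listed, and Vcan and Fap were too low to test). These were Spp1, the secreted phosphoprotein osteopontin made by injured tubules (2.84 ± 0.83, adjusted p = 0.033), Timp1, an inhibitor of metalloproteinases (2.21 ± 0.55, adjusted p = 0.017) and Cyr61, a matricellular relative of Ctgf (1.94 ± 0.30, adjusted p = 0.0022). The count was 1 without FAN1KO cisplatin replicate 1 and 2 without wild-type cisplatin replicate 1 or FAN1KO cisplatin replicate 2. The share of all genes called higher was 7.81%, 9.63% and 10.3% in the same order. The call of Spp1 was lost in all 3 of these fits (adjusted p = 0.12, 0.12 and 0.083). The call of Timp1 was lost without FAN1KO cisplatin replicate 1 (0.079). It was also lost with only the libraries compared (0.062), where 11.5% of all genes were called higher. In the 8 libraries without Y-linked RNA Spp1 (2.21, adjusted p = 0.0010), Timp1 (1.57, adjusted p = 0.016) and Cyr61 (1.48, adjusted p = 0.0012) were called. Of all genes 28.9% were called higher there. Cyr61 was at 18.2, 48.9 and 46.5 TPM in wild-type and 154, 118 and 138 in FAN1KO cisplatin kidneys, where its relative Ctgf overlapped between genotypes.

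**Figure D4:**
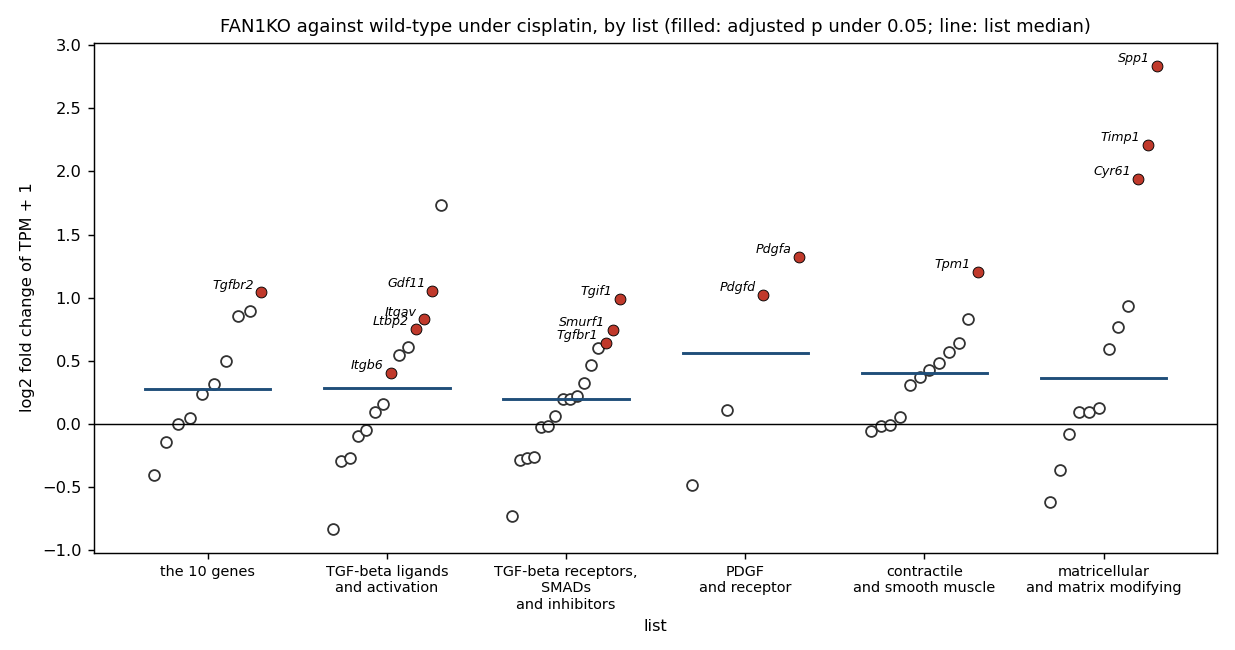
Log2 fold change of TPM + 1 between genotypes under cisplatin, FAN1KO over wild-type (y axis), for the 10 genes and the 5 other lists (x axis), filled and named where the adjusted p is under 0.05, with a line at each median. The medians run from 0.20 to 0.57, and no gene with a value below 0 is filled.

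Markers of other cell types moved in the same libraries, and their part in these results was not tested. Their counts stand beside 19.6% of all genes called higher and 4.37% lower. Between genotypes under cisplatin, 4 of 4 markers of injured proximal tubule were higher (summed TPM 32.8 to 148 in wild-type against 778 to 1155 in FAN1KO kidneys, and 6.86 to 67.3 under saline) and 4 of 5 of healthy proximal tubule lower (2970 to 4067 against 1164 to 2161). Endothelial markers, of cells that express Pdgfb and Tgfbr2, were not called (0 of 4, 35.0 to 149 against 18.2 to 64.1 TPM, median log2 fold change -1.01). Fibroblast markers were at 23.9 to 115 against 23.7 to 56.5 TPM (0 of 5 called), pericyte and vascular smooth muscle markers at 21.3 to 51.1 against 32.9 to 56.2 (1 of 5, Cspg4, higher) and mesangial markers at 28.6 to 76.7 against 36.3 to 110 (0 of 3). Macrophage markers were at 62.5 to 203 against 170 to 412 TPM (1 of 5, Cd68, higher), T cell markers at 2.05 to 8.96 against 3.16 to 16.1 (0 of 4), platelet markers at 5.54 to 9.34 against 9.76 to 18.6 (0 of the 2 tested) and adipocyte markers at 1.02 to 34.0 against 2.23 to 6.47 (0 of 3). Erythroid markers fell from 2318 to 6571 TPM to 6.56 to 73.3 (4 of 4 lower), urothelial markers summed to at most 0.459 TPM in any library, with Upk3a at 0 in the 3 FAN1KO cisplatin libraries, and of the other nephron segments 1 of 4 (Aqp2) was higher. The mitochondrially encoded share of TPM was 18.3% to 21.2% in wild-type and 10.2% to 16.7% in FAN1KO cisplatin kidneys.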

How the data were processed

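Whole-kidney RNA sequencing libraries of 12 mice, 3 in each of 4 groups, were grouped and numbered by the sample labels. The authors deposited TPM for 27179 genes by NCBI Gene number, each library summing to 1000000; the submitters' processing notes list mm10 and limma, and the aligner and counting program are not given in the sources used here. Per-sample columns left out numbered 0. Names and positions came from RefSeq for GRCm38.p6. Whole reads behind the TPM were worked back from their smallest steps: 232991 of 232991 values above 0 came out whole within 0.002 reads. Counting of strand is not given in the sources used here.

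The 14972 genes that reached 1 TPM in 3 or more libraries were tested on log2(TPM + 1), a scale that understates changes of low genes. limma 3.58.1 (R 4.3.3) fitted 4 group means with moderation and a mean-variance trend, and p-values were adjusted by Benjamini–Hochberg over all genes at a threshold of 0.05. Exact permutation tests were two-sided. The labels do not say more of the replicates than that they are separate mice.

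The members and lists were chosen with earlier results of these data known. All 10 members were named in every comparison; from each other list, up to 3 rises and 2 falls called between genotypes under cisplatin. Alternatives were a pseudocount of 0.1, no filter, median-ratio scaling, 23 mitochondrially encoded and globin genes left out, only the libraries compared, the replicate number as a block, a Y-linked covariate, no trend, and each library left out. The 8 libraries without Y-linked RNA and voom on recovered reads were added after seeing the data. A gene of the matricellular list is not reported here. The fit was tested on simulated data with known changes. Those data held no difference by Y-linked RNA and no shift of the bulk of genes. The test therefore does not bear on the calls made here. Python 3.11.15 and matplotlib 3.10.9 were also used.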

Additional observations from a re-analysis of the deposited data

Results flagged for a closer look

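The effect of cisplatin differed between FAN1KO and wild-type kidneys, by the interaction term in limma at an adjusted p under 0.05, for 1 of the 10 genes and 4 of the 14 named genes of the other lists, against 6.24% of all genes in either direction. Of those 14, 13 were named because they were called between genotypes under cisplatin, a contrast that shares libraries with the interaction, so their share is a description. For Tgfbr2 the difference of log2 fold changes was 1.13 (adjusted p = 0.029), with 1.22 in FAN1KO and 0.08 in wild-type kidneys. For Tgif1 it was 1.40 (adjusted p = 0.024), for Pdgfa 1.59 (adjusted p = 0.023), for Cyr61 1.63 (adjusted p = 0.049) and for Itgb6 0.71 (adjusted p = 0.027). With median-ratio scaling Pdgfa (1.23, adjusted p = 0.016) was called and Tgfbr2 (0.78, adjusted p = 0.085), Tgif1 (1.06, adjusted p = 0.070), Cyr61 (1.27, adjusted p = 0.10) and Itgb6 (0.35, adjusted p = 0.26) were not. In the 8 libraries without Y-linked RNA all 5 were called, with adjusted p from 0.011 to 0.041. More of all genes were called there too, 13.4% higher and 2.90% lower. Groups of 3 were too small to look for single outlying samples.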

How the results depend on the processing

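Tgfbr2 was called higher between genotypes under cisplatin (adjusted p from 0.00055 to 0.020) and for cisplatin in FAN1KO kidneys (0.00012 to 0.0061) under every alternative run, libraries left out included. Members called between genotypes under cisplatin rose from 1 to 3 with the Y-linked covariate, where 40.3% of all genes were called higher. The interaction had 0 members called in place of 1 with median-ratio scaling, with mitochondrially encoded and globin genes left out (Tgfbr2 1.03, adjusted p = 0.051) and with the replicate block. In these fits 2.22%, 2.80% and 2.34% of all genes were called higher in the interaction. Leaving out single libraries gave 1 to 1 members between genotypes under cisplatin, 2 to 3 for cisplatin in FAN1KO kidneys and 0 to 1 in the interaction. Beside these counts, 7.81% to 19.7%, 21.0% to 36.0% and 1.45% to 6.55% of all genes were called higher in the same order. No member was called between genotypes under saline or for cisplatin in wild-type kidneys under any alternative. For cisplatin in FAN1KO kidneys Tgfb1 also fell short with mitochondrially encoded and globin genes left out (1.34, adjusted p = 0.051), and Tgfb2 was called with the Y-linked covariate (0.52, adjusted p = 0.0499). The causes of these changes were not tested.

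Same-numbered libraries are different mice, and the deviations of same-numbered pairs between genotypes under cisplatin correlated at -0.24 on average against 0.13 for different numbers. Deviations from a mean of 3 add up to 0, which ties these averages to each other. The Y-linked library is also replicate 1 in wild-type but replicate 3 in FAN1KO cisplatin kidneys. These values therefore cannot decide whether the numbers pair the libraries. With the replicate block 1 and 0 members were called between genotypes under cisplatin and under saline. For cisplatin in FAN1KO and in wild-type kidneys 3 and 0 were called, and 0 in the interaction. Of the 14972 genes tested, 2376, 32, 4798, 0 and 351 were called higher with this block, in the same order.

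Of the 5 other lists, the Y-linked covariate called 8 genes of ligands and activation, 8 of receptors, SMADs and inhibitors, 6 contractile and 7 matricellular, in place of 4, 3, 1 and 3, of which 1, 2, 0 and 1 were lower. Over all genes this fit called 40.3% higher and 8.60% lower. Leaving out mitochondrially encoded and globin genes called 1 of ligands and activation, 1 of receptors, 1 of PDGF and 0 contractile. Only the libraries compared called 1 of PDGF and 0 contractile genes, and median-ratio scaling 2 of ligands and activation and 1 of PDGF. A pseudocount of 0.1 called 2 of ligands and activation, the 8 libraries without Y-linked RNA 7 of receptors (6 higher and 1 lower), and voom 2 contractile. All genes called higher were 11.5% with mitochondrially encoded and globin genes left out and 11.5% with only the libraries compared. They were 8.68% with median-ratio scaling, 17.2% with a pseudocount of 0.1, 28.9% in the 8 libraries and 20.2% with voom. With single libraries left out the counts ran from 0 to 5, 1 to 3, 1 to 2, 0 to 1 and 1 to 3 in list order. The share of all genes called higher ran from 7.81% to 19.7% in those fits.

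Members that missed the threshold changed sign, as log2 fold changes. With median-ratio scaling these were Fn1 (-0.020) and Tagln (-0.25) between genotypes under cisplatin, Pdgfrb (-0.37), Acta2 (-0.30) and Tagln (-0.21) for cisplatin in FAN1KO kidneys, Tgfbr2 (-0.016) for cisplatin in wild-type kidneys and Acta2 (-0.33) in the interaction. In the 8 libraries without Y-linked RNA they were Fn1 (-0.50) and Tagln (-0.11) between genotypes under cisplatin, Tgfb1 (0.020) and Pdgfrb (0.016) under saline, Pdgfrb (-0.089) for cisplatin in FAN1KO kidneys, Tgfbr2 (-0.0016) in wild-type kidneys, and Fn1 (-0.36) and Acta2 (-0.28) in the interaction. With mitochondrially encoded and globin genes left out they were Tagln (-0.056) between genotypes under cisplatin, Pdgfrb (-0.078) for cisplatin in FAN1KO kidneys and Acta2 (-0.084) in the interaction. Ctgf between genotypes under cisplatin became 0.0045 with a pseudocount of 0.1 and 0.036 with the Y-linked covariate.

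Leaving out single libraries also turned signs. Between genotypes under cisplatin the ranges were -0.98 to 0.018 (Pdgfrb), -0.64 to 0.41 (Ctgf), -0.46 to 0.76 (Fn1), -0.44 to 0.37 (Postn), -0.018 to 0.60 (Acta2) and -0.40 to 0.41 (Tagln). Under saline they were -0.38 to 0.30 (Tgfb1), -0.067 to 0.43 (Tgfb2), -0.036 to 0.45 (Pdgfb), -0.19 to 0.048 (Tgfbr2), -0.55 to 0.48 (Pdgfrb), -0.23 to 0.74 (Ctgf), -0.65 to 0.36 (Fn1) and -0.12 to 0.31 (Tagln). For cisplatin in FAN1KO kidneys they were -0.51 to 0.47 (Pdgfrb), -0.074 to 0.35 (Acta2) and -0.063 to 0.54 (Tagln), and in wild-type kidneys -0.063 to 0.41 (Tgfb2), -0.017 to 0.20 (Tgfbr2), -0.091 to 0.95 (Pdgfrb), -0.094 to 1.13 (Fn1), -0.14 to 0.47 (Acta2) and -0.063 to 0.75 (Tagln). In the interaction they were -0.90 to 0.14 (Pdgfrb), -0.91 to 0.23 (Ctgf), -0.31 to 0.91 (Fn1), -0.31 to 0.30 (Acta2) and -0.50 to 0.31 (Tagln). With 3 mice a group, the SE of 0.17 to 0.67 between genotypes under cisplatin limits what these libraries can show, while 34 to 417 reads limit Postn.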
